A study of Mus musculus with 6 samples.

Results

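The genes described here carry peptides into the endoplasmic reticulum and load them onto MHC class I molecules. They were Tap1, Tap2, Tapbp, Tapbpl, Erap1, Pdia3 and Canx, 7 of the 27670 gene names on the array, chosen by their symbol or, for Erap1 and Pdia3, also by the older symbols Arts1 and Grp58. Together they had 11 probes, of which 10 were bright enough to be tested, and each of the 7 genes had at least 1 tested probe. Tapbp and Tap1 were higher in cells with introduced Irf7, Tap2, Pdia3 and Canx were lower, Tapbpl was lower by a small amount, and Erap1 did not pass the test. The falls of Tap2, Pdia3, Tapbpl and the brightest Canx probe depended on the processing, since they did not pass without scaling between arrays. That of Tapbpl also failed with quantile normalization, with median centring, with no filter on dim probes and when most single arrays were left out. The Canx probes A_52_P496596 and A_51_P242143 were lower under every alternative that tested them.

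Cells show fragments of their own proteins on MHC class I molecules at the surface, where CD8 T cells inspect them. The proteasome cuts proteins in the cytosol, and the transporter made of Tap1 and Tap2 pumps the peptides across the membrane of the endoplasmic reticulum at the expense of ATP. Inside, aminopeptidases trim them, calnexin holds newly made class I heavy chains, and a loading complex of tapasin, ERp57 and calreticulin keeps empty class I molecules next to the transporter until a well-fitting peptide is bound. Interferons are known to induce several of these genes, and tumour cells are known to lose some of them.

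The cells were 4T1.2, a line derived from the 4T1 mammary carcinoma of BALB/c mice that is known to spread to bone. The 3 IRF7 samples carried the retroviral vector pMSCV with Irf7, which switches on type I interferon genes after viral sensing, and the 3 BV samples carried the same vector without it. Both groups had been through the same virus, puromycin selection and growth from single cells, after which clones were pooled, so each group is 1 pooled population, measured in 3 independent experiments. The labels give no treatment, and the cells were compared at rest. Whether more cells with a transcript or more transcript per cell underlies a difference cannot be told apart in such bulk RNA, and p-values here measure the spread between cultures of these populations.

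The measure was the processed signal of 1-colour Agilent arrays, a brightness on a linear scale. For the tests it was expressed as log2 relative to the array's 75th percentile, which lay between 1299 and 1467 on the IRF7 arrays and between 1153 and 1298 on the BV arrays. Of the probe spots, 56.8 to 59.7% were well above background on the IRF7 arrays and 54.3 to 56.8% on the BV arrays. All 3 IRF7 arrays and BV replicate 1 shared a slide, and BV replicates 2 and 3 were on another slide. Changes within the shared slide set 3 IRF7 arrays against 1 BV array. They are given, for the members and some other genes, as log2 changes alone. The groups differed in a large share of genes: 58.6% of 23536 tested probes passed an adjusted p of 0.05 in limma, 30.4% higher and 28.2% lower in IRF7 cells. Correlation between arrays was 0.996 to 0.997 within a group and 0.978 to 0.980 between the groups.

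The introduced gene matched its labels. The Irf7 probe (A_51_P421876, mm7 chromosome 7, 137682028 to 137682378) read 4486, 4963 and 5012 in IRF7 cells, against 246, 195 and 210 in BV cells. That was 19.4-fold higher in IRF7 cells (log2 change 4.28, SE 0.049, limma). Of 8 mammary epithelial markers, 6 were above background on every array, and Krt19 and Cldn4 were above it on none. Of the 6 tested, 3 were higher, 1 was lower and 2 were not called, with log2 changes of 2.62 for Krt7, 1.19 for Epcam, 0.15 for Krt8 and -0.29 for Cldn3 (limma adjusted p = 1.52e-06, 0.00186, 0.0137 and 0.00512). Krt8 did not pass with median centring (limma adjusted p = 0.41), nor Cldn3 without scaling (limma adjusted p = 0.505). Summed signals of the marker lists are given before scaling between arrays. That of the epithelial markers was 511075 to 566569 in IRF7 cells and 393930 to 456146 in BV cells. After scaling, the median log2 change of the 6 tested was 0.09. Of 8 leukocyte markers, 3 could be tested and none passed, with Cd3e at 0.13 and Csf1r at 0.26 (limma adjusted p = 0.478 and 0.328) and summed signals of 354 to 542 in IRF7 cells and 270 to 377 in BV cells, and Cd79a, Itgam and Itgax were above background on no array. Of 8 endothelial and fibroblast markers, 4 could be tested, 1 higher and 3 lower, with summed signals of 3423 to 3899 in IRF7 cells and 6620 to 7463 in BV cells, most of it from Pdgfra, a growth factor receptor of mesenchymal cells (mean signal 3303 in IRF7 cells and 6645 in BV cells). Pdgfra had a log2 change of -1.21 and Cdh5, of endothelium, 1.05 (limma adjusted p = 4.41e-06 and 1.53e-05). Pdgfrb and Dcn, the other 2 that were lower, were well above background on all BV arrays and on no IRF7 array. They were tested only through the BV arrays, so the count of 1 higher and 3 lower gives no direction for this list. Pecam1, another endothelial marker of that list, was above background on no array. The part of these markers in the results below was not tested.

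The probes of the transporter are shown because the result turns on these single stretches, which lie in neighbouring genes and changed in opposite directions. Both are in the strand sense of the transcript, 5′ to 3′, as in the deposited files, on mm7.
Tap1 probe A_51_P100327, chr17:32273751-32273810, + strand: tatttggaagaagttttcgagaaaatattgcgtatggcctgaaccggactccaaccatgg
Tap2 probe A_52_P86176, chr17:32294682-32295269, + strand, split by an intron over 588 bases of the genome: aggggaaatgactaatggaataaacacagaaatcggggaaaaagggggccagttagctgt

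Tap1, one of the 2 subunits of the peptide transporter, read 1128, 1183 and 1237 in IRF7 cells, against 627, 597 and 595 in BV cells. Every IRF7 array lay above every BV array, before and after scaling. The scaled level averaged -0.23 ± 0.02 in IRF7 cells and -0.99 ± 0.05 in BV cells (log2, SD, n = 3 each). Tap1 was 1.70-fold higher in IRF7 cells, with a 95% interval of 1.59 to 1.81 (log2 change 0.76, SE 0.038, limma adjusted p = 3.42e-05). Among all tested probes, 95.1% had a smaller change. Within the shared slide the log2 change was 0.82.

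Tap2, its partner, read 933, 944 and 1082 in IRF7 cells, against 1169, 1060 and 1062 in BV cells. These raw signals overlapped between the groups, in that IRF7 replicate 3 exceeded BV replicates 2 and 3. After each array was scaled, every IRF7 array lay below every BV array, at -0.49 ± 0.07 in IRF7 cells and -0.14 ± 0.02 in BV cells (log2, SD, n = 3 each). Tap2 fell by 0.36 on the log2 scale, to 0.782 of the BV level (SE 0.042, limma adjusted p = 0.000868). Without scaling between arrays the median of all tested probes was itself 0.22 higher in IRF7 cells, and Tap2 did not pass at -0.16 (limma adjusted p = 0.216). Within the shared slide it was -0.34.

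The subunits were also set against each other within each array, where a constant scaling of the array cancels. The log2 signal of the Tap1 probe minus that of the Tap2 probe ran from 0.19 to 0.33 on IRF7 arrays and from -0.90 to -0.83 on BV arrays. The shift of that difference was 1.12 (SE 0.045), and the groups did not overlap. The exact permutation test over the 6 arrays gave p = 0.1, the smallest it can give with 3 against 3, and adjusted over the 3 pairs of members compared it was also 0.1. Each subunit was read by 1 probe, so a second reading of either change is not at hand here.

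**Figure D1:**
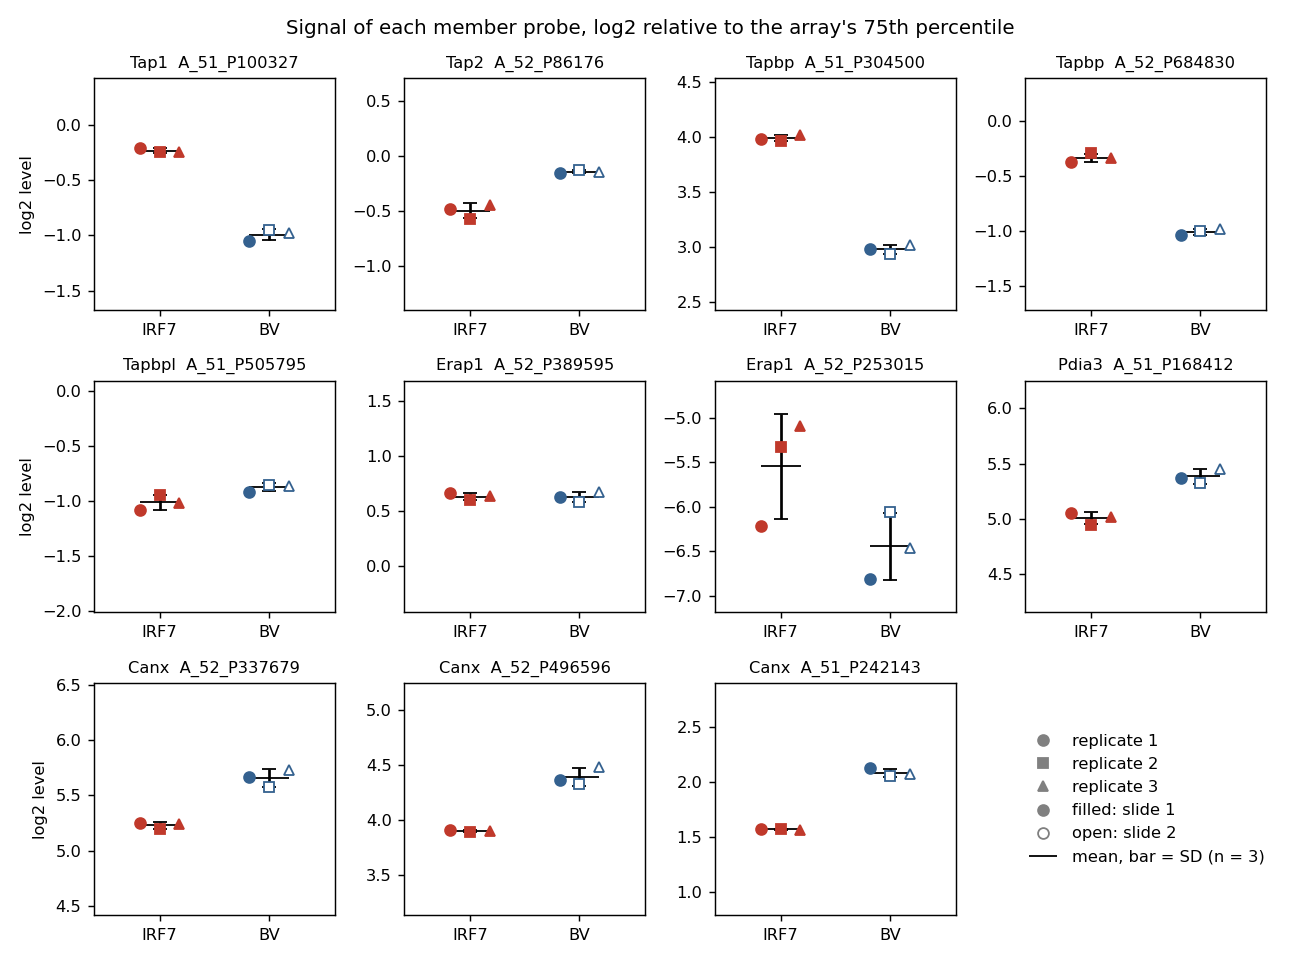
Log2 signal relative to the array's 75th percentile (vertical axis) of all 11 probes of the 7 genes, with IRF7 arrays on the left and BV arrays on the right of each panel, where points are arrays, bars are mean and SD (n = 3 each), and filled points were on slide 1. The Tap1 and Tapbp probes stand higher in IRF7 cells, the Tap2, Pdia3 and Canx probes lower, and the Erap1 probe A_52_P389595 at 0.63 in both groups.

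Tapbp encodes tapasin, which bridges empty class I molecules to the transporter and favours the exchange of weakly bound peptides. Its brighter probe (A_51_P304500, mm7 chromosome 17, 32007107 to 32007166) read 20469, 21857 and 23778 in IRF7 cells, against 10268, 8859 and 9546 in BV cells. Its dimmer probe (A_52_P684830, 32004181 to 32004240) read 1005, 1140 and 1164 in IRF7 cells, against 634, 577 and 595 in BV cells. With both probes the IRF7 arrays lay wholly above the BV arrays. The first gave the largest rise among the 10 tested probes of the set, 2.01-fold in IRF7 cells over BV cells, with a 95% interval of 1.89 to 2.13 (log2 change 1.00, SE 0.035, limma adjusted p = 1.14e-05). The second gave 1.59-fold (log2 change 0.67, SE 0.035, limma adjusted p = 3.93e-05). The files name transcript variant 1 for the first probe and variant 2 for the second but list both transcripts under each, so the probes do not separate the variants. Within the shared slide the log2 changes were 1.00 and 0.70. Of all tested probes, 2.98% passed the test with a rise of at least 2-fold, as the brighter Tapbp probe did.

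Tapbpl encodes the tapasin relative TAPBPR, which edits the peptides of class I molecules away from the transporter. Its probe (A_51_P505795, mm7 chromosome 6, 125250899 to 125250958) read 615, 728 and 726 in IRF7 cells, against 687, 639 and 647 in BV cells, and these raw signals overlapped. Scaled levels were -1.01 ± 0.07 in IRF7 cells and -0.88 ± 0.04 in BV cells (log2, SD, n = 3 each). The log2 change was -0.14 (SE 0.046, limma adjusted p = 0.0463), just past the threshold. Within the shared slide the log2 change was -0.09, and without scaling the sign turned (0.06, limma adjusted p = 0.612). The call also ended with quantile normalization, median centring and no filter on dim probes (limma adjusted p = 0.0589, 0.141 and 0.0805). Without IRF7 replicate 2 the call held (limma adjusted p = 0.0283), and leaving out any other single array ended it (adjusted p = 0.0602 to 0.121).

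Set against each other on the same arrays, the log2 signal of the brighter Tapbp probe minus that of the Tapbpl probe was 4.91 to 5.06 in IRF7 cells and 3.79 to 3.90 in BV cells. The shift was 1.14 (SE 0.057) with no overlap between the groups (exact permutation p = 0.1, the smallest possible).

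Erap1 is the aminopeptidase that trims peptides to the length class I molecules hold. Its tested probe (A_52_P389595, mm7 chromosome 13, 71703924 to 71703983) read 2056, 2125 and 2276 in IRF7 cells, against 2012, 1732 and 1877 in BV cells. The raw signals did not overlap, but the scaled levels did, at 0.63 ± 0.03 in IRF7 cells and 0.63 ± 0.04 in BV cells (log2, SD, n = 3 each). The log2 change was 0.00 (SE 0.037, limma adjusted p = 0.979). Its 95% interval, 0.939 to 1.07-fold, is narrow beside the changes of Tap1 and Tapbp, but it moves with the scaling: without scaling the log2 change was 0.20 (limma adjusted p = 0.108). A second probe, designed on a cDNA clone (A_52_P253015, 71681679 to 71681738), read 17.5, 34.8 and 43.0 in IRF7 cells and 11.5, 17.2 and 13.4 in BV cells. It was well above background on 2 IRF7 arrays and no BV array, was not tested, and gives no fold because its mean in IRF7 cells did not exceed the detection floor of the BV arrays.

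Pdia3 encodes ERp57, a disulfide isomerase joined to tapasin in the loading complex that also folds other glycoproteins. Its probe (A_51_P168412, mm7 chromosome 2, 121178655 to 121178715) read 42983, 43109 and 47584 in IRF7 cells, against 53782, 46161 and 51428 in BV cells. The raw signals overlapped, since IRF7 replicate 3 exceeded BV replicate 2. The scaled levels did not overlap, at 5.00 ± 0.05 in IRF7 cells and 5.38 ± 0.07 in BV cells (log2, SD, n = 3 each). Pdia3 fell by 0.38 on the log2 scale, to 0.769 of the BV level (SE 0.048, limma adjusted p = 0.00118). Without scaling it was -0.18 and did not pass (limma adjusted p = 0.157), and within the shared slide it was -0.37.

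Canx encodes calnexin, the membrane chaperone that holds new heavy chains before the loading complex takes them. It had 3 probes on mm7 chromosome 11, and all were lower in IRF7 cells. A_51_P242143, whose 60 bases are split over 782 bases of the genome, read 3860, 4170 and 4342 in IRF7 cells and 5661, 4797 and 4944 in BV cells. A_52_P496596 read 19460, 20807 and 21915 in IRF7 cells and 26740, 23059 and 26260 in BV cells. A_52_P337679 read 49549, 51235 and 55390 in IRF7 cells and 66107, 55000 and 62441 in BV cells. For the first and second of these the raw signals did not overlap, and for the third IRF7 replicate 3 just exceeded BV replicate 2. In the same order the log2 changes were -0.51 (SE 0.031, limma adjusted p = 7.09e-05), -0.49 (SE 0.048, limma adjusted p = 0.00042) and -0.43 (SE 0.049, limma adjusted p = 0.000713). Without scaling the first and second still passed, at -0.31 and -0.29 (limma adjusted p = 0.0272 and 0.0352), and the third did not, at -0.23 (limma adjusted p = 0.0861). Within the shared slide the values were -0.55, -0.46 and -0.44.

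Pdia3 and the brightest Canx probe moved almost in step. The dimmer Canx probes, at -0.49 and -0.51, lay further from the -0.38 of Pdia3 and were not compared in this way. The log2 signal of the Pdia3 probe minus that of the brightest Canx probe was -0.25 to -0.21 in IRF7 cells and -0.30 to -0.25 in BV cells. These ranges did not overlap, yet the shift was 0.05 (SE 0.018, exact permutation p = 0.1, the smallest possible), small beside the shift of 1.12 between Tap1 and Tap2.

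Counted over the set, 3 of the 10 tested probes were higher in IRF7 cells and 6 were lower, against 30.4% higher and 28.2% lower among all tested probes. Of the 10, 9 had groups that did not overlap after scaling, against 66.0% of all tested probes. Taken by the brightest probe of each gene, 2 genes were higher, 4 lower and 1 not called, and the median log2 change was -0.14, against 0.03 over 15430 genes. Among those genes 60.1% passed the test, 31.3% higher and 28.7% lower. With so few members these shares are a description and no more.

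**Figure D2:**
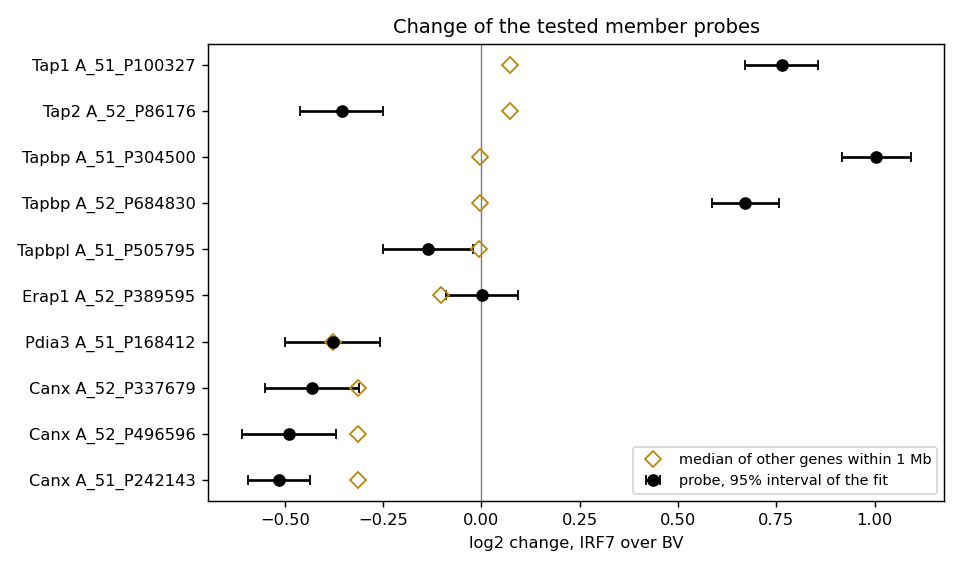
Log2 change in IRF7 over BV cells (horizontal axis) of the 10 tested probes, with the 95% interval of the fit, and the median change of the other tested genes within 1 Mb of each gene (open diamonds). Tap1 (0.76) and Tapbp (1.00 and 0.67) lie far from their neighbours' medians of 0.07 and 0.00, while Pdia3 (-0.38) lies on its neighbours' median of -0.38.

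The members were next set beside the genes around them, using the probe positions in the files. For Pdia3 on chromosome 2, the 45 other tested genes within 1 Mb had a median log2 change of -0.38, the same as Pdia3 itself. Of them 33, or 73.3%, were lower in IRF7 cells and 4 were higher, against 28.7% and 31.3% of all genes. Pdia3 sat in the middle, with 22 neighbours below it and 23 above. B2m, the light chain shared by all class I molecules, lies in the same stretch, 714863 bases from the Pdia3 probe. Its log2 change had the other sign (0.19, SE 0.044, limma adjusted p = 0.0111). Within the shared slide it was 0.15, and with median centring the call ended (0.15, limma adjusted p = 0.228). B2m falls outside the rule for naming genes and was chosen after its value was seen.

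For Canx on chromosome 11, the 22 other tested genes within 1 Mb had a median of -0.31, and 14 of them, or 63.6%, were lower. The brightest Canx probe fell further than 16 of the 22. Along the whole of these chromosomes the medians were -0.12 for 1200 genes of chromosome 2 and -0.14 for 1322 genes of chromosome 11, with 43.3% and 45.8% of genes lower. Some neighbours counted around Pdia3 and Canx are unnamed entries close to a named gene, so a locus may be counted more than 1 time. The part of these surroundings in the falls of Pdia3 and Canx was not tested.

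The members that rose lay above most of the genes around them. Around Tap1 the median of 90 other genes was 0.07, and Tap1 lay above 82 of them. Around Tapbp the median of 73 genes was -0.00, and its brighter probe lay above 71. Tap2 lay below 83 of its 92 neighbours. The 44 genes around Tapbpl had a median of -0.01 and the 16 around Erap1 a median of -0.10.

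Tap1, Tap2 and Tapbp all lie in the MHC region of chromosome 17. Tap1 and Tap2 lie among the class II genes and alternate with genes of the immunoproteasome, and Tapbp lies beyond H2-K1. In probe order along the chromosome, with distances from the Tap1 probe, Tapbp at -266644 bases was higher (1.00), Psmb9 at -11604 bases was higher by little (0.15, SE 0.033, limma adjusted p = 0.00908), and Tap1 was higher. The call of Psmb9 ended with median centring (0.11, limma adjusted p = 0.371), and within the shared slide its log2 change was 0.17. Psmb8 at 6974 bases was higher as well (0.60, SE 0.045, limma adjusted p = 0.000147), and Tap2 at 20931 bases was lower. Leaving the members out, 31 of 88 tested genes within 1 Mb of Tap1 were higher (35.2%), 21 were lower and 36 were not called, with a median of 0.07. Over chromosome 17 as a whole 35.6% of 752 genes were higher, and over all genes 31.3%. The region around the transporter was thus mixed, with a share of rises near that of its chromosome.

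**Figure D3:**
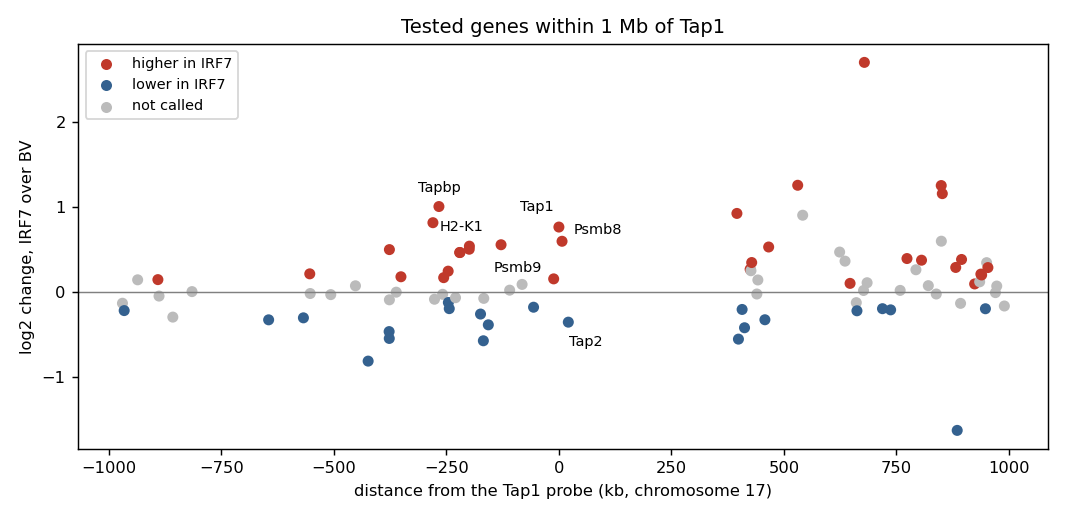
Log2 change in IRF7 over BV cells (vertical axis) of the tested genes within 1 Mb of the Tap1 probe, by distance in kb along chromosome 17, each point the brightest probe of a gene. Tap1 (0.76), Psmb8 (0.60) and Tapbp (1.00) are higher and Tap2 (-0.36) is lower, among neighbours of both directions.

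Promoter windows of RefSeq (GRCm38.p6, 250 bases before to 50 after the start site) were at hand for 5 of the 7 genes, Tap1, Tapbp, Erap1, Pdia3 and Canx. The Tap1 window is shown because Tap1 and Psmb9 start from opposite strands of 1 short stretch but changed by 0.76 and 0.15. Their windows share 275 bases, and capitals mark the 225 bases between the start sites. The Erap1 and Canx windows are shown because they hold the motif matches, marked in capitals.
Tap1, chr17:34187306-34187605, + strand: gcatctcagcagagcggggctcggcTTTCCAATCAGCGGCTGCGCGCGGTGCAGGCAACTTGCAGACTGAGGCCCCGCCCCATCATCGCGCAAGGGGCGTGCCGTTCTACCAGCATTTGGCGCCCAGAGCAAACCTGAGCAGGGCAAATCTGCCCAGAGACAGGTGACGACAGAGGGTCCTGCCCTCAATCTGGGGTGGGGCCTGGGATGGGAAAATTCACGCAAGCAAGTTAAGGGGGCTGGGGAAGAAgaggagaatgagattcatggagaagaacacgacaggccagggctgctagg
Erap1, chr13:74639603-74639902, + strand: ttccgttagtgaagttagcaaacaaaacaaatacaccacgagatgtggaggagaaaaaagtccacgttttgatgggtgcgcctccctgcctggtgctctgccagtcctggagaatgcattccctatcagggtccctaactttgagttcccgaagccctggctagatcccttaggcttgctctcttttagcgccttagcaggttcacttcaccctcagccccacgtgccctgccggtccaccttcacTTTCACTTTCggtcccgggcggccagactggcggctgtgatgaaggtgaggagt
Canx, chr11:50325624-50325923, - strand: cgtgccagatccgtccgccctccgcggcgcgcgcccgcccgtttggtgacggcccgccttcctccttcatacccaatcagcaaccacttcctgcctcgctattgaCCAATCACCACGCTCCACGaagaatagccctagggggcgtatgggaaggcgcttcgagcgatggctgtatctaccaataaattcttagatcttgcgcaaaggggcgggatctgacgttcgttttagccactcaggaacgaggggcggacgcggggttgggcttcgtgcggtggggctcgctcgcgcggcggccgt

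Motifs were searched as letters on both strands. The interferon-stimulated response element, which binds interferon regulatory factors, was searched as GAAA, any 2 bases and GAAA. It occurred in 3.44% of 32851 windows and in 1 of the 5 members' windows, that of Erap1, on the minus strand from -4 to 6 bases of the start site. The Tap1 and Tapbp windows held no match. The gamma-activated site, a motif of genes that answer to interferon gamma, was searched as TTCNNNGAA, occurred in 8.30% of windows and was in none of the 5. The endoplasmic reticulum stress element, searched as CCAAT, any 9 bases and CCACG, occurred in 0.119% of windows and in that of Canx, from -145 to -127 bases. Its first letters, the CCAAT box, occurred in 37.4% of windows, and here 1 time in the Tap1 window, 2 times in those of Tapbp and Pdia3, 3 times in that of Canx and not in that of Erap1. These matches are letters in a window and say nothing of binding, and the absence of a match says only that these letters are not in it.

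The rest of the class I route was read from lists of genes with each gene's brightest probe. Of 13 tested class I heavy chain genes and B2m, 13 were higher in IRF7 cells and none was lower, with a median log2 change of 0.44, against 31.3% higher and a median of 0.03 over all genes. H2-T23, the Qa-1 molecule that presents leader peptides to natural killer receptors, rose by 0.50 (SE 0.030, limma adjusted p = 6.89e-05). H2-T22, a ligand of some gamma-delta T cells, rose by 0.62, and H2-Q2 rose by 0.44 (SE 0.039 and 0.029). H2-T24 was well above background on all IRF7 arrays and on no BV array. By its brighter probe it was at least 2.12-fold higher, where each BV array counts at no less than its detection floor. It was tested only through the IRF7 arrays, so its call adds nothing to the count. Over the genes well above background on all 6 arrays, 12 of this list were higher and none was lower. With median centring 11 were higher. The classical molecules H2-K1 and H2-D1, named after their values were seen, were 1.42-fold and 1.28-fold higher. Class I genes are near-identical copies of each other, so their probes may share transcripts and their count is not of independent readings.

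Of 6 tested genes of the immunoproteasome and its activator, 5 were higher and 1 was not called, with a median of 0.23 (of all genes, 31.3% were higher and 28.7% lower). The proteasome cuts the peptides that the transporter carries. Psmb8, a catalytic subunit, read 21664, 22010 and 24734 in IRF7 cells and 14088, 12086 and 13224 in BV cells, with no overlap. It rose 1.51-fold. Psmb10, another, rose by 0.44 (SE 0.055) and Pomp, which helps assemble the proteasome, by 0.30 (SE 0.037, limma adjusted p = 0.00105 and 0.000972). The rise of Psmb9 was 1.11-fold.

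Of 11 tested peptidases of the cytosol and cell surface, which trim or destroy peptides, 6 were higher, 2 were lower and 3 were not called, with a median of 0.14 (of all genes, 31.3% were higher and 28.7% lower). Prep rose by 0.34 (SE 0.040, limma adjusted p = 0.000816), and Lap3, a leucine aminopeptidase that interferon is known to induce, rose by 0.20 (SE 0.032). Nln, or neurolysin, rose by 0.18 (SE 0.035), while Blmh, bleomycin hydrolase, fell by 0.33 (SE 0.045, limma adjusted p = 0.00143). Lap3 and Nln did not pass with median centring (limma adjusted p = 0.197 and 0.271), nor Blmh without scaling (-0.13, limma adjusted p = 0.293). Within the shared slide the log2 change of Nln was 0.19.

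The general folding machinery of the endoplasmic reticulum, in which Pdia3 and Canx also work, was mixed. Of 19 tested genes 6 were higher, 3 were lower and 10 were not called, with a median of 0.02 (of all genes, 31.3% were higher and 28.7% lower). The median was -0.02 with median centring and -0.03 with quantile normalization. Pdia4, a disulfide isomerase related to Pdia3, fell by 0.48 (SE 0.059, limma adjusted p = 0.00099). Calr, the soluble relative of calnexin in the loading complex, rose by 0.32 (SE 0.053, limma adjusted p = 0.00322), where all Canx probes had fallen. Uggt1, which re-glucosylates misfolded glycoproteins and returns class I molecules to calreticulin, rose by 0.23, and the chaperone Hspa5 by 0.21 (SE 0.043 and 0.046, limma adjusted p = 0.00514 and 0.0105). With median centring Calr, Uggt1 and Hspa5 did not pass (limma adjusted p = 0.0566, 0.109 and 0.223). Within the shared slide the log2 changes of Calr, Uggt1 and Hspa5 were 0.34, 0.23 and 0.19.

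Tap1 and Tap2 belong to subfamily B of the ABC transporters, and 8 other genes of that subfamily were tested, of which 4 were higher, 3 lower and 1 not called, with a median of 0.26 (of all genes, 31.3% were higher and 28.7% lower). The median was 0.06 with normexp background correction and 0.15 over the genes above background on all arrays. Abcb1b and Abcb4, neighbours on chromosome 5 that move drugs and phospholipids, read the largest rises of the list, at 1.53 and 1.52 (SE 0.037 and 0.047, limma adjusted p = 3.44e-06 and 7.27e-06). The first 10 Mb of that chromosome, where both lie, held 38 tested genes with a median of 0.60. Abcb9, the lysosomal transporter most like the peptide transporter, read 684, 666 and 711 in IRF7 cells and 354, 324 and 326 in BV cells, a rise of 1.79-fold (log2 change 0.84, SE 0.047, limma adjusted p = 5.32e-05). Abcb8, of the mitochondrion, fell by 0.47 (SE 0.035).

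Of 12 tested genes that regulate class I genes or signal for interferon, 7 were higher, 1 was lower and 4 were not called (of all genes, 31.3% were higher and 28.7% lower). Irf9 and Stat2, which act together at interferon-stimulated response elements, rose by 2.45 and 1.83 (SE 0.038 and 0.033, limma adjusted p = 9.42e-07 and 1.46e-06). Ifnb1 was well above background on all IRF7 arrays and on no BV array, at least 2.56-fold higher. It was tested only through the IRF7 arrays, so its call adds nothing to the count. Over the genes well above background on all 6 arrays, 6 regulators were higher and 1 was lower. The 1 gene that fell was Irf1, a factor known to drive Tap1 and Psmb9, at -0.41 (SE 0.036, limma adjusted p = 0.000275), with 12078, 12709 and 13348 in IRF7 cells and 15803, 13527 and 14702 in BV cells. It did not pass without scaling (-0.21, limma adjusted p = 0.103). The median of this list was 0.12.

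**Figure D4:**
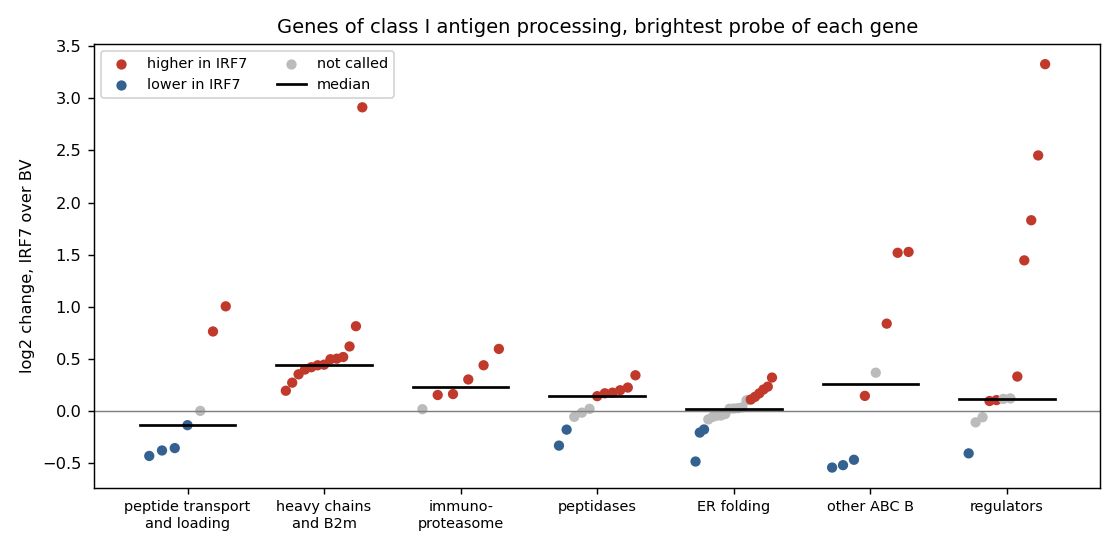
Log2 change in IRF7 over BV cells (vertical axis) of the brightest probe of each tested gene in 7 lists of the class I route, coloured by the limma call, with the median of each list as a line. The set described here spans -0.43 to 1.00, the class I heavy chains and B2m are all higher with a median of 0.44, and the topmost points of the heavy chains (H2-T24, 2.91) and of the regulators (Ifnb1, 3.33) are fitted values of genes not well above background on BV arrays.

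The 15427 genes with a value on all 6 arrays were ranked by the Euclidean distance of their centred log2 levels from those of Tap1. Leaving the members out, the nearest were Ascc3 (0.0544), Tslp (0.0692), Msmo1 (0.0693), Tor1aip1 (0.0694) and Itgb7 (0.0711). For Tapbp they were Arl11 (0.0386), Il17d (0.0503), Trim25 (0.0564), Erlin1 (0.0592) and Riox2 (0.0607). The distance is in log2 units, so these genes changed by nearly the same amount as Tap1 or Tapbp.

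**Figure D5:**
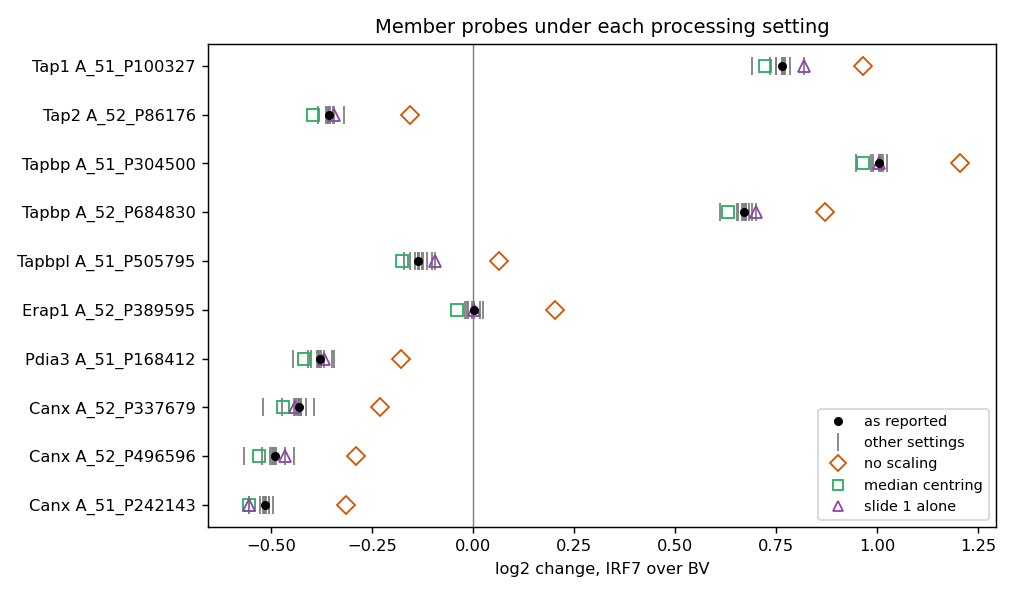
Log2 change in IRF7 over BV cells (horizontal axis) of the 10 tested probes under each way of processing, with the reported value as a black point. The Tap1 and Tapbp probes stay well above 0 under every setting shown, the Tap2, Pdia3 and Canx probes stay below 0 but move toward it without scaling, and Tapbpl (-0.14 as reported, 0.06 without scaling) and Erap1 cross it.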

How the data were processed

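Total RNA of 3 IRF7 and 3 BV samples was labelled with Cy3 and hybridised to 1 array each. The scanner's software was Agilent Feature Extraction 9.5.3.1, per the submitters' processing notes. The deposited processed signal is, per the file headers, a background-subtracted intensity on a linear scale, not scaled between arrays, and the value table that the authors also deposited was identical to it (largest difference 0). Genome positions are those of the files, on mm7, and gene names were updated through the RefSeq gene table of GRCm38.p6, by accession for 22951 of 41174 probes, by symbol for 6659 and by older symbol for 3109, while 8455 kept their name.

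Each array held 45018 spots. The 1639 control spots and the 111 to 121 spots per array marked as outliers were left out, 1 spot was saturated on 1 array, and spots of a probe were averaged. Log2 of the signal minus that of the array's 75th percentile was tested with lmFit and eBayes of limma 3.58.1 in R 4.3.3, IRF7 against BV over all 6 arrays, on the 23536 probes well above background on at least 3 arrays, with Benjamini-Hochberg adjustment over all of them and a threshold of 0.05. Counts over genes use the brightest probe. The number of arrays limits the precision. Differences between 2 members were tested with an exact 2-sided permutation test over arrays (scipy 1.17.1).

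The members and the lists were chosen with earlier results of these data known. The text names all members, Irf7, the genes of each list with the lowest p (at most 4), and for likeness the 5 nearest genes to Tap1 and to Tapbp. A further 2 genes that meet it count in their lists but are not reported here. The lists were class I heavy chains and B2m, immunoproteasome, peptidases, endoplasmic reticulum folding, other ABC transporters of subfamily B, interferon and class I regulators, and epithelial, leukocyte, and endothelial and fibroblast markers. The alternatives were normexp (offset 50), 3 other scalings (quantile normalization, the median of each array, and none), no filter or a stricter one, 1 probe per gene, a trended and robust eBayes, the slide as a block (fixed or random) or only its first one, the replicate number as a block, and the omission of each array in turn.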

Additional observations from a re-analysis of the deposited data

How the results depend on the processing

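With Tap1 and both Tapbp probes higher and Canx A_52_P496596 and A_51_P242143 lower, these calls held under every alternative in which the probe was tested. Leaving out 1 array at a time, the log2 changes were 0.74 to 0.79 for Tap1, -0.38 to -0.32 for Tap2, 0.98 to 1.02 and 0.65 to 0.69 for the Tapbp probes, -0.17 to -0.10 for Tapbpl, -0.41 to -0.34 for Pdia3, and -0.47 to -0.39, -0.52 to -0.44 and -0.53 to -0.49 for the Canx probes. The differences between members were 1.09 to 1.15 (Tap1 and Tap2), 1.11 to 1.19 (Tapbp and Tapbpl) and 0.04 to 0.06 (Pdia3 and Canx). Without scaling, 2 members' probes were lower in place of 6, and Tapbpl turned to 0.065. Erap1, uncalled throughout, turned to -0.0016 with normexp, -0.016 with quantile normalization, -0.039 with median centring, -0.021 without BV replicate 2 and -0.014 without IRF7 replicate 1. Over the single-array omissions it ran from -0.021 to 0.024, and 3 member probes were higher and 5 to 6 lower. Among the markers, Cd3e, uncalled, turned to -0.153 within slide 1 and with a fixed slide block. The cause of these shifts was not tested.

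Over all tested probes, 4297 were higher with median centring (43.3% of the called, against 51.9% as reported), 2456 were lower without scaling (79.4% of the called higher) and 14574 were lower with no filter, where 41174 probes entered (32.2% of the called higher). With single arrays left out, 6175 to 6930 were higher and 5710 to 6444 lower. With quantile normalization, 5 folding genes and 2 regulators were lower. With median centring, 3 immunoproteasome genes, 1 peptidase, 0 folding genes and 4 regulators were higher, and 1 peptidase and 1 folding gene were lower. Without scaling, 0 peptidases, 1 folding gene and 0 regulators were lower, and with no filter 3 folding genes were higher. With trend and robust, 2 regulators were lower. With slide as a fixed block, 3 immunoproteasome genes, 2 peptidases, 1 folding gene and 4 regulators were higher, and 1 peptidase and 1 folding gene were lower. Slide 1 alone leaves 1 BV array, so its counts are not given. The fixed slide block takes its log2 changes from those same arrays. With single arrays left out, 3 to 7 folding genes, 5 to 6 peptidases, 5 to 7 regulators and 3 to 5 ABC transporters were higher, and 2 to 3 folding genes, 1 to 2 peptidases and 1 to 2 regulators were lower.

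The replicate numbers in the titles were not taken as pairs, since same-numbered samples deviated together by correlations of 0.04, 0.23 and 0.21, not all above 0.1, although each sample correlated best with its own number. With the replicate number as a block, 14474 probes were called in place of 13781, 3 member probes were higher and 6 lower, and 1 peptidase was lower.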

Other observations

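Other readings along the stretch of chromosome 2 that holds Pdia3 were large. Lcmt2, a tRNA-modifying methyltransferase, had a log2 change of -1.83, and Adal, a deaminase of modified adenosine, of -1.54 (limma adjusted p = 4.74e-06 and 2.96e-05). Ell3, an elongation factor whose probe lies 1360 bases from that of Pdia3, had -0.99 (limma adjusted p = 1.88e-05). Among the few genes there that were higher in IRF7 cells, Duox1, an oxidase that makes hydrogen peroxide, had 1.31 and Trim69 had 0.76 (limma adjusted p = 0.00311 and 0.000791). Near Canx, the zinc finger gene Zfp354c had -2.04 (limma adjusted p = 2.5e-05), the autophagy receptor Sqstm1 had -0.68 (limma adjusted p = 0.000229), and Mrnip, which takes part in DNA repair, had -0.92 (limma adjusted p = 1.63e-05). These genes were named after their values were seen, and no explanation was tested.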
